A study of Homo sapiens with 10 samples.

Results

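Plasminogen activators are serine proteases that cut the plasma zymogen plasminogen into plasmin, a broad protease that dissolves fibrin and degrades matrix around cells. Urokinase, the product of PLAU, does this at the cell surface while bound to its receptor uPAR, the product of PLAUR, and tissue plasminogen activator, the product of PLAT, acts mainly on fibrin. Serpins are suicide inhibitors of such proteases. Protease nexin-1, the product of SERPINE2, inhibits urokinase, tissue plasminogen activator and thrombin, and PAI-2, the product of SERPINB2, inhibits urokinase. In tumours urokinase and uPAR are known for pericellular proteolysis during invasion. The mRNAs of these 5 genes and of PRSS23, a secreted trypsin-like protease that is neither a known plasminogen activator nor a serpin, were followed in lung adenocarcinoma cells with and without an APEX1 knockout. The 6 genes were taken by symbol, and each has 1 row among the 28281 symbols of both count tables.

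The cells were A549 and NCI-H1944 (H1944 below), established lung adenocarcinoma cell lines, either knocked out for APEX1 (KO) or wild type (WT). APEX1 encodes APE1, an endonuclease of base excision repair that also acts as a redox regulator of transcription factors such as AP-1, and the study's title concerns APE1, G-quadruplex DNA and the urea cycle. Poly(A) RNA was sequenced from 3 KO and 3 WT libraries of A549 and from 2 KO and 2 WT libraries of H1944. The labels do not say whether a KO line was a single clone or whether libraries came from separate cultures, so p-values here speak of the scatter among libraries, and that scatter may be technical. The 3 A549 KO libraries carry the numbers 16, 65 and 66 and no genotype in their column names; KO is the only labelled A549 group without named columns, and they were read as KO on that ground.

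Totals ran from 18314224 to 30219850 counts per library. APEX1 mRNA measured 60.1, 62.9 and 108 CPM (counts scaled to a common library size by TMM) in A549 KO 16, 65 and 66, against 167, 254 and 237 CPM in A549 WT 1, 2 and 3. It measured 87.0 and 87.6 CPM in H1944 KO, against 244 and 243 CPM in H1944 WT, so it was lower in each KO library of its line and detected in all of them. In bulk RNA, fewer cells with a transcript and less transcript per cell cannot be told apart. The A549 libraries also split by ribosomal RNA and not by genotype. WT 1 had 4839 and KO 65 had 5945 counts of the 28S ribosomal RNA gene RNA28SN4, and the other 4 had 0. KO 16 and KO 66 also differed from each other by a chi-square of 135 per gene, against 1.89 for WT 2 and WT 3. For this reason A549 changes are repeated below for KO 65 against WT 1, and for KO 16 and KO 66 against the mean of WT 2 and WT 3. The labels give no such matching of KO to WT libraries. Of the 5 lung lineage markers, NAPSA was detected in each library, at 0.899 and 0.789 CPM in H1944 KO, against 10.4 and 7.48 CPM in H1944 WT, while NKX2-1 had 0 counts in each H1944 library and SFTPA1 had 0 in each A549 library. The epithelial keratins KRT8 and KRT18 were abundant in each library.

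The data bear on promoters only in that several of these genes moved together in H1944, and G-quadruplexes form from runs of guanine. The 250 bases before an annotated start are shown for the 4 genes with the larger changes, 5′ to 3′ along the transcribed strand, from RefSeq (GRCh38.p14). They were matched by symbol for 5 of the 6 genes. For PLAU, SERPINE2 and PRSS23, 2 annotated starts each were searched. The start shown for these 3 genes is the searched one whose 250 bases hold 4 runs of GGG. The gene-level counts do not tell which start was used. The annotated spans of PLAU and SERPINE2 begin upstream of both their searched starts, and the bases before those spans were not searched. Capitals mark 4 runs of GGG separated by 1 to 7 bases in PLAU, SERPINE2 and PRSS23, and the AP-1 motif TGANTCA in PLAUR. The windows are chr10:73910882-73911131 (plus strand) for PLAU, chr19:43670170-43670419 (minus strand) for PLAUR, chr2:224038641-224038890 (minus strand) for SERPINE2 and chr11:86800292-86800541 (plus strand) for PRSS23.
PLAU: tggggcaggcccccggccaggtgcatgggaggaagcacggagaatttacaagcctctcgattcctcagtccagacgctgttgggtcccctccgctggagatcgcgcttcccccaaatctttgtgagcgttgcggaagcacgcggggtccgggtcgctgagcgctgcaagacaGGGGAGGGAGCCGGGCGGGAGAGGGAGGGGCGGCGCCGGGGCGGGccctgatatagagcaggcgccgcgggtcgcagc
PLAUR: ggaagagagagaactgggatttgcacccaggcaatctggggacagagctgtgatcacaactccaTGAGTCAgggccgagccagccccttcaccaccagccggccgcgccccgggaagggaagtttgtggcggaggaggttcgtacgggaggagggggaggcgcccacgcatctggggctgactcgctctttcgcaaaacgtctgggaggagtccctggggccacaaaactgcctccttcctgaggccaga
SERPINE2: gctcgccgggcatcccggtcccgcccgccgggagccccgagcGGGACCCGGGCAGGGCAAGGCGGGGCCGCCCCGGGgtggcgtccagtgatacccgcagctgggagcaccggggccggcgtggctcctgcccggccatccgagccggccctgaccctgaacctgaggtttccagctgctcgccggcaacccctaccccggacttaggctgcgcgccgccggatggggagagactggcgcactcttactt
PRSS23: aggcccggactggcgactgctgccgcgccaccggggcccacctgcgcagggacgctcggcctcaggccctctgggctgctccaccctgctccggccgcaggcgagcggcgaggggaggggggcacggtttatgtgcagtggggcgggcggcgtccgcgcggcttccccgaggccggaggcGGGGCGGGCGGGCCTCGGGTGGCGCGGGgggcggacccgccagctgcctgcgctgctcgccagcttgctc

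The GGG pattern, searched on both strands, occurred in 23.3% of 35116 windows of the same length and in 31% of the 17581 windows of genes tested in H1944. The AP-1 motif, which reads the same on both strands, occurred in 6.57% and 4.82% of these windows. In PLAU the GGG pattern began at position -78 relative to the start, in SERPINE2 at -208 and in PRSS23 at -70, and the AP-1 motif of PLAUR began at -186. The GC box GGGCGG, searched on both strands, occurred in 42.6% and 60.1% of windows, and in the windows shown it was found 3 times in PLAU, 2 times in SERPINE2 and 5 times in PRSS23, partly within the GGG runs. PLAUR held neither the GGG pattern nor a GC box. The other searched starts of PLAU, SERPINE2 and PRSS23 held no GGG pattern and no AP-1 motif, and SERPINB2 held the AP-1 motif at -102. The cyclic AMP response element TGACGTCA, in 1.65% of windows, was in none of the 8 windows. A match of letters is a description of the window and shows neither a folded quadruplex nor a bound factor.

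In H1944, KO cells had more mRNA of all 5 members that could be tested. SERPINE2 rose 12.7-fold, PRSS23 11.1-fold, PLAU 6.45-fold, PLAUR 2.51-fold and PLAT 2.31-fold (n = 2 each). SERPINB2 was at or near 0 in both genotypes. KO was compared with WT by edgeR's quasi-likelihood test with Benjamini-Hochberg adjustment over 16626 genes, and an adjusted p under 0.05 was the threshold. In H1944 33.2% of tested genes rose and 33.9% fell by this rule, and 41.1% had each KO library above each WT library, so a rise alone sets no member apart. Rises of at least 2-fold made up 10.1% of tested genes and rises of at least 4-fold 3.93%. All 5 tested members passed the first size and SERPINE2, PRSS23 and PLAU the second.

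PLAU, the urokinase gene, measured 419 and 413 CPM in H1944 KO, against 69.1 and 59.7 CPM in H1944 WT. Both KO libraries lay far above both WT libraries, by 5.98 to 7.01 times over the 4 pairs. The log2 fold change was 2.69 with a standard error (SE) of 0.05 (edgeR adjusted p 4.74e-16). PLAU (chromosome 10, 73908832 to 73917494, plus strand, hg38) is overlapped on the other strand by C10orf55, an antisense RNA gene. Strandedness of the counting is not given in the sources used here, so reads of the pair cannot be told apart. C10orf55 had 33.9% and 34.4% as many counts as PLAU in H1944 KO, against 37.4% and 35.8% in H1944 WT, and its log2 fold change was 2.59 (SE 0.06, edgeR adjusted p 7.71e-18).

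PLAT (chromosome 8, 42174718 to 42207565, minus strand), the other activator, was scarce. It measured 6.20 and 6.40 CPM in H1944 KO, against 2.97 and 2.48 CPM in H1944 WT, from 176 and 191 counts against 67 and 52. The genotypes did not overlap. The log2 fold change was 1.21 (SE 0.19, edgeR adjusted p 9.5e-06), and with all 10 libraries sharing 1 estimate of the spread the adjusted p was 0.17. PLAT was the 1 member whose H1944 call was lost under an alternative.

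PRSS23 (chromosome 11, 86791071 to 86952910, plus strand) measured 253 and 258 CPM in H1944 KO, against 22.6 and 23.6 CPM in H1944 WT. Each KO library was 10.8 to 11.4 times each WT library. Its log2 fold change of 3.47 had an SE of 0.05 (edgeR adjusted p 1.03e-23). The annotated span overlaps FZD4, a Wnt receptor gene on the other strand, which measured 13.6 and 13.6 CPM in H1944 KO, against 5.23 and 3.96 CPM in H1944 WT, and also rose (log2 fold change 1.56, edgeR adjusted p 4.82e-09).

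PLAUR (chromosome 19, 43646095 to 43670169, minus strand), the urokinase receptor, measured 67.1 and 63.8 CPM in H1944 KO, against 26.4 and 25.7 CPM in H1944 WT. The KO libraries were 2.42 to 2.61 times the WT libraries, a smaller gap than that of its ligand. The log2 fold change was 1.33 (SE 0.06, edgeR adjusted p 2.45e-14).

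Of the serpins, SERPINE2 (chromosome 2, 223975045 to 224039286, minus strand) measured 67.3 and 69.9 CPM in H1944 KO, against 5.31 and 5.48 CPM in H1944 WT. It had the widest gap of the 5, 12.3 to 13.2 times over the 4 pairs, and ranked 204th of 16626 genes by rise. The log2 fold change was 3.67 (SE 0.08, edgeR adjusted p 7.51e-20). SERPINB2 (chromosome 18, 63887705 to 63903888, plus strand) had 5 and 5 counts in H1944 KO, against 0 and 3 in H1944 WT, and was too low to be tested. The depth-scaled ratio of summed counts, KO over WT, was 2.42 with a 95% exact interval of 0.622 to 13.7, which spans 1 and covers counting error only. A count of 0 allows up to 3 counts, or 0.0993 to 0.164 CPM in these libraries.

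**Figure D1:**
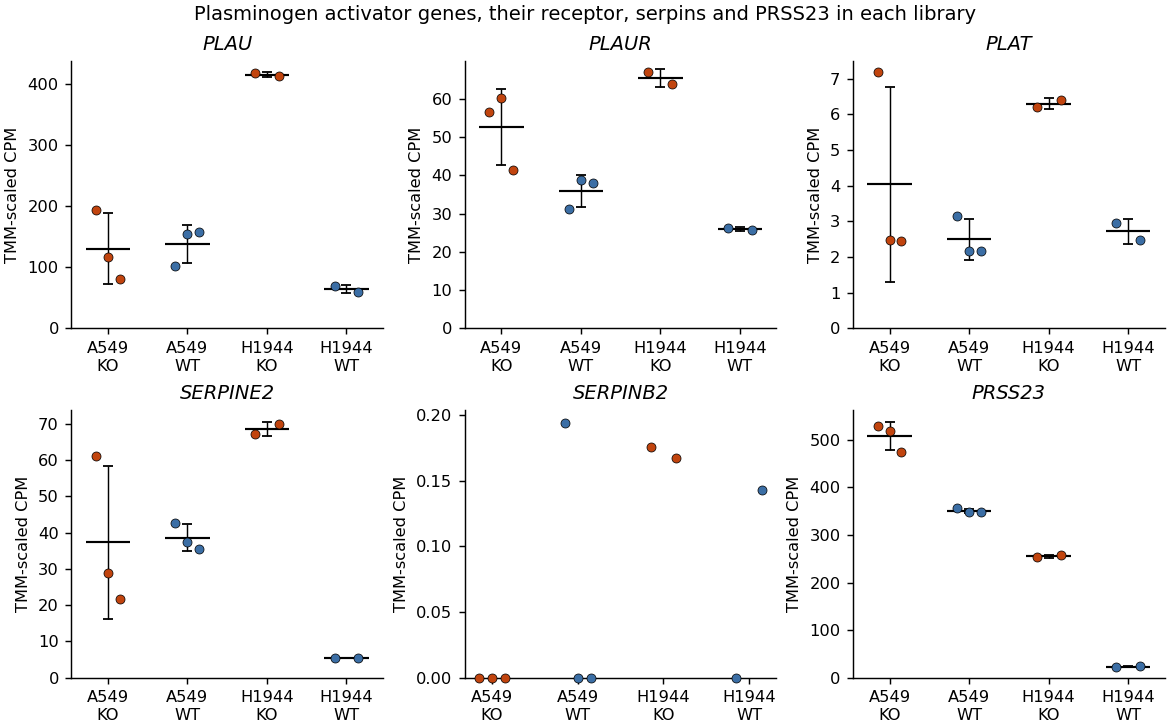
TMM-scaled CPM (vertical axes, from 0) of the 6 genes in each library, by line and genotype. Points are libraries, horizontal lines are means and bars are SD (not drawn for SERPINB2, which had at most 5 counts); the H1944 KO libraries of PLAU sit at 413 and 419 CPM against 59.7 and 69.1 CPM in WT, while the A549 genotypes of PLAU overlap.

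In A549 no member passed the test, and the members did not share a direction. PRSS23 and PLAUR were higher in each KO library than in each WT library, PLAT was higher mainly in KO 65, and PLAU and SERPINE2 overlapped between genotypes. By edgeR 0 of 5 tested members were called, 2 had an unadjusted p under 0.05, as had 895 of 15806 genes, and DESeq2 and limma-voom also called 0. Among all 15806 genes, 0.00633% rose and 0% fell by edgeR, while DESeq2 had 0.513% rising and 0.279% falling. The scatter was far wider than in H1944 (biological coefficients of variation 39.0% and 4.74%), so a missed threshold in A549 does not show that a gene was unchanged. The chi-square per gene was 2.89 between the H1944 KO libraries and 3.28 between the H1944 WT libraries, near the 1.89 of A549 WT 2 and WT 3. Whether the small H1944 scatter was technical was not tested.

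PRSS23 measured 520, 530 and 475 CPM in A549 KO 16, 65 and 66, against 356, 348 and 348 CPM in A549 WT 1, 2 and 3. The genotypes did not overlap, and 6.11% of tested genes had every KO library above every WT library. PRSS23 had a log2 fold change of 0.54 (SE 0.16, edgeR adjusted p 0.701). Against the WT libraries of like ribosomal RNA, KO 65 differed by 0.57, KO 16 by 0.58 and KO 66 by 0.45 on the log2 scale. Their shared direction follows from the lack of overlap.

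PLAUR measured 60.2, 56.6 and 41.5 CPM in A549 KO 16, 65 and 66, against 31.3, 38.9 and 37.9 CPM in A549 WT 1, 2 and 3. The groups were apart by a small margin, KO 66 being 1.07 times WT 2. PLAUR had a log2 fold change of 0.55 (SE 0.21, edgeR adjusted p 0.843). KO 65, KO 16 and KO 66 gave 0.86, 0.65 and 0.11 against the WT libraries of like ribosomal RNA.

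PLAU measured 117, 194 and 81.2 CPM in A549 KO 16, 65 and 66, against 103, 155 and 158 CPM in A549 WT 1, 2 and 3. The genotypes overlapped, and the log2 fold change was -0.09 (SE 0.35, edgeR adjusted p 0.995). The sign differed by library, KO 65 giving 0.92, KO 16 giving -0.43 and KO 66 giving -0.95 against the WT libraries of like ribosomal RNA. C10orf55 had 36.3% to 41.5% as many counts as PLAU in A549 KO, against 35.0% to 44.5% in A549 WT.

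SERPINE2 followed the same order of KO libraries, with 28.9, 61.2 and 21.7 CPM in A549 KO 16, 65 and 66, against 42.7, 37.3 and 35.5 CPM in A549 WT 1, 2 and 3. SERPINE2 had a log2 fold change of -0.05 (SE 0.38, edgeR adjusted p 0.995). KO 65, KO 16 and KO 66 gave 0.52, -0.34 and -0.75 against the WT libraries of like ribosomal RNA. PLAT measured 2.49, 7.19 and 2.44 CPM in A549 KO 16, 65 and 66, against 3.16, 2.16 and 2.18 CPM in A549 WT 1, 2 and 3. KO 65 alone stood high, and the log2 fold change was 0.70 (SE 0.50, edgeR adjusted p 0.995) with KO 65 and -0.019 without it. SERPINB2 had 0 counts in each A549 KO library, against 4, 0 and 0 in A549 WT 1, 2 and 3.

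The difference between lines was tested in 1 fit of all 10 libraries, as the A549 change minus the H1944 change. PRSS23 (log2 difference -2.96, SE 0.19, edgeR adjusted p 0.000219), SERPINE2 (-3.73, SE 0.55, 0.00484) and PLAU (-2.80, SE 0.50, 0.0119) had a lower KO change in A549, where none of the 3 passed, than in H1944. Over 17677 genes 2.85% had a lower and 4.1% a higher change in A549 by this rule. PLAUR (-0.81, SE 0.27) and PLAT (-0.52, SE 0.67) did not pass, with edgeR adjusted p of 0.122 and 0.706. The call of PLAU was lost without any 1 H1944 library: its adjusted p was 0.0543, 0.0522, 0.064 and 0.0808 without H1944 KO 1, KO 2, WT 1 and WT 2, with log2 differences of -2.92 to -2.71. PLAUR passed without A549 WT 1 (adjusted p 0.037) and by DESeq2 (adjusted p 0.0478), which called 6.1% of genes lower.

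**Figure D2:**
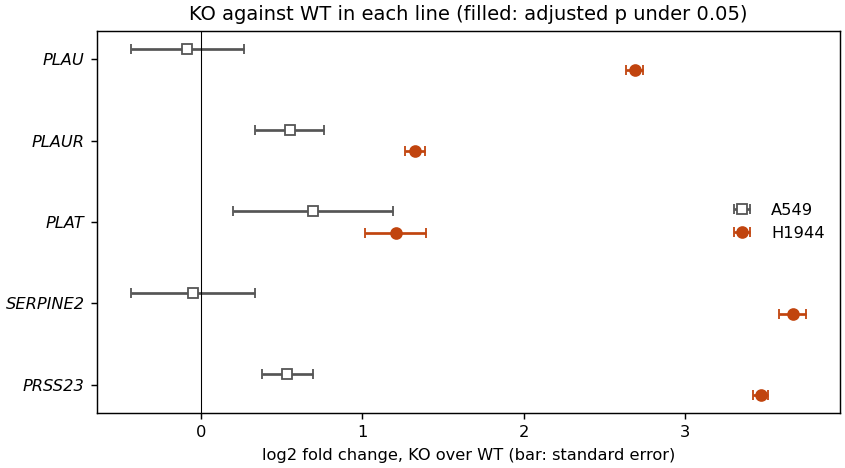
Log2 fold change of KO over WT (horizontal axis) for the 5 tested genes in A549 (squares) and H1944 (circles), with bars of 1 standard error; filled symbols have an adjusted p under 0.05. The H1944 values run from 1.21 for PLAT to 3.67 for SERPINE2 and all are filled, while the A549 values lie between -0.09 and 0.70 and none is filled.

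Levels were compared between genes as CPM per kilobase (kb) of annotated exon (GENCODE 29), with all 10 libraries on 1 scale. In H1944 KO, PLAU was the most abundant at 152 ± 1.70 CPM per kb, followed by PRSS23 at 42.3 ± 0.463, PLAUR at 29.2 ± 1.08, SERPINE2 at 21.4 ± 0.558 and PLAT at 2.24 ± 0.0485 (SD, n = 2). In H1944 WT, PLAU led at 23.5 ± 2.43 CPM per kb, with PLAUR at 11.6 ± 0.205, PRSS23 at 3.82 ± 0.108, SERPINE2 at 1.68 ± 0.0371 and PLAT at 0.969 ± 0.123 (SD, n = 2). No neighbours in either order overlapped. PRSS23 thus stood above PLAUR in KO and below it in WT.

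In A549 KO, PRSS23 led at 86.0 ± 5.17 CPM per kb, with PLAU at 48.9 ± 22.4, PLAUR at 24.0 ± 4.30, SERPINE2 at 11.9 ± 6.95 and PLAT at 1.48 ± 1.03 (SD, n = 3). In A549 WT, PRSS23 at 60.4 ± 1.07 and PLAU at 52.9 ± 13.3 CPM per kb overlapped, and PLAUR at 16.8 ± 2.41, SERPINE2 at 12.5 ± 0.830 and PLAT at 0.920 ± 0.179 followed (SD, n = 3). PLAUR and SERPINE2 overlapped in A549 KO. SERPINB2 was last in each group, at 0 to 0.0881 CPM per kb.

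Set side by side, H1944 WT had less of 4 members than A549 WT. Each H1944 WT library lay below each A549 WT library for PLAU (21.8 to 25.2 against 37.6 to 61.2 CPM per kb), PLAUR (11.5 to 11.8 against 14.0 to 18.4), SERPINE2 (1.66 to 1.71 against 11.7 to 13.4) and PRSS23 (3.75 to 3.90 against 59.2 to 61.1). The H1944 KO libraries lay above each of the 6 A549 libraries for PLAU (151 to 153 CPM per kb, against at most 73.9 in A549), PLAUR (28.4 to 30.0, against at most 26.7) and SERPINE2 (21.0 to 21.8, against at most 19.9). PRSS23, at 42.0 to 42.6 CPM per kb in H1944 KO, was still below each A549 library. These orders are descriptions, and the lines came in separate count tables, so a difference between tables and one between lines cannot be told apart. The share of all genes that separate the lines in these ways was not counted, so the orders set no member apart.

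Ratios of counts per kb within a library do not depend on scaling between libraries. In H1944 the ratio of PLAU to PLAUR was 5.11 and 5.30 in KO, against 2.14 and 1.90 in WT, and that of PLAU to PLAT was 69.4 and 66.2 in KO, against 23.9 and 24.7 in WT. Urokinase mRNA thus gained on both its receptor and the other activator. The ratio of PLAU to SERPINE2 was 7.30 and 6.92 in H1944 KO, against 15.2 and 12.8 in H1944 WT, so PLAU lost ground to this inhibitor while both rose.

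In A549 the ratio of PLAU to PLAUR was 1.59, 2.81 and 1.602 in KO 16, 65 and 66, against 2.69, 3.26 and 3.41 in WT 1, 2 and 3, and KO 65 lay within the WT range. The ratio of PLAU to SERPINE2 overlapped between A549 genotypes, at 3.72 to 4.74 in KO and 2.82 to 5.22 in WT. The ratios themselves were not tested.

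**Figure D3:**
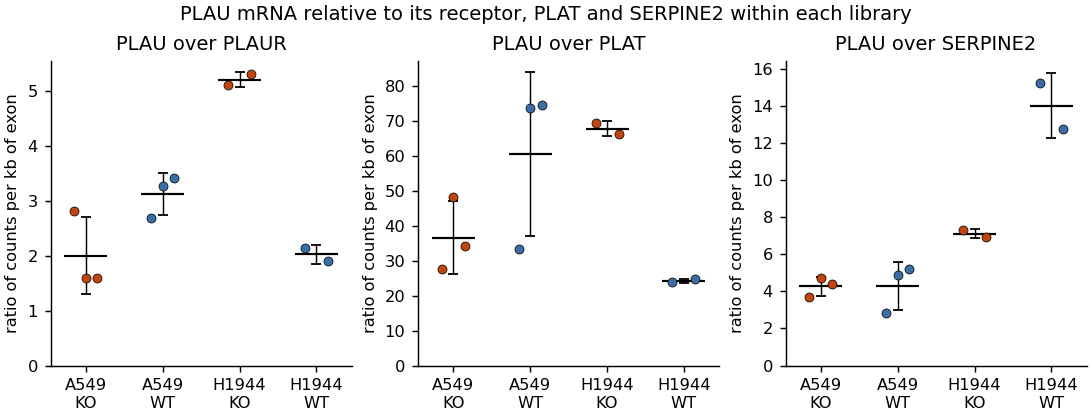
Ratio of PLAU to PLAUR, PLAT and SERPINE2 as counts per kb of exon within each library (vertical axes, from 0), by line and genotype; points are libraries, lines are means and bars are SD. In H1944 the ratio to SERPINE2 is lower in KO (6.92 and 7.30) than in WT (12.8 and 15.2), and the ratio to PLAUR is higher in KO (5.11 and 5.30) than in WT (1.90 and 2.14).

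Other genes of the pathway were read from 8 lists with 89 genes. In H1944 31 of the 65 tested list genes rose and 22 fell, shares near or above the 33.2% and 33.9% of all tested genes, with a median log2 fold change of 0.23 against -0.01 over all tested genes. Some list genes with few counts passed the filter through 1 genotype only, which favoured a higher level in that genotype. In A549 edgeR called 0 of 55, with a median of 0.18 against 0.02 over all tested genes. There 5 had an unadjusted p under 0.05 (4 higher, 1 lower), against 895 of all 15806 genes, and limma-voom and DESeq2 called 0.

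In the list of other inhibitors of plasminogen activators and plasmin, 0 of 4 tested genes rose in H1944 and 1 fell. TFPI2, a plasmin inhibitor counted below with the thrombin genes, rose by 2.64 on the log2 scale. SERPINA5, the protein C inhibitor, had 0 counts in H1944 KO, against 29 in H1944 WT, and was at least 6.62-fold lower against 3 counts per library. SERPINI1, which encodes neuroserpin, had -0.71 and SERPINE3 had 0.92 on the log2 scale. A2M, which encodes the broad protease inhibitor alpha-2-macroglobulin, had 0.10, and none of the 3 passed. The list's median was -0.31, also with SERPINA5 at its bound.

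Plasminogen itself was nearly absent, with 0 counts of PLG in each H1944 library and at most 10 in an A549 library. Of its 4 tested cell-surface receptors, ANXA2 and its partner S100A10, which form a docking complex for plasminogen and tissue plasminogen activator, rose in H1944 by 0.71 and 0.23 on the log2 scale. ENO1, the glycolytic enolase that also binds plasminogen, had -0.10 and fell, and PLGRKT had 0.06 and did not pass. The list's median was 0.15.

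Of uPAR co-receptors and clearance receptors, 13 of 17 tested genes rose in H1944 and 3 fell (median log2 fold change 0.66). ITGA3, an integrin subunit that pairs with uPAR, measured 408 ± 13.9 CPM in H1944 KO and 139 ± 4.64 CPM in H1944 WT, and VTN, which encodes the uPAR ligand vitronectin, measured 47.1 ± 1.23 and 3.15 ± 0.132 CPM (SD, n = 2 each). ITGA5, of the fibronectin receptor, rose by 1.33 on the log2 scale, and SORL1, a sorting receptor of the LDL receptor family, fell by 3.77. Of growth factor and matrix substrates, 3 of 6 rose and 1 fell (median 0.99). FN1, which encodes fibronectin, measured 244 ± 7.16 CPM in H1944 KO and 7.02 ± 0.218 CPM in H1944 WT, and BDNF, whose precursor plasmin can cut, measured 39.4 ± 3.17 and 1.36 ± 0.0382 CPM (SD, n = 2 each). LTBP1, which anchors latent TGF-beta, rose by 1.75 on the log2 scale, and PDGFC, a growth factor activated by tissue plasminogen activator, fell by 0.32.

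The families of the members moved in mixed directions in H1944. Of 7 tested clade B serpins, the family of SERPINB2, 2 rose and 3 fell (median log2 fold change -0.20, also with SERPINB11, at 0 counts in KO, at its bound). SERPINB6, an intracellular protease inhibitor, measured 227 ± 3.26 CPM in H1944 KO and 64.1 ± 0.131 CPM in H1944 WT, while SERPINB3 measured 0.345 ± 0.0606 and 3.76 ± 0.129 CPM (SD, n = 2 each). Of 7 tested proteins with the uPAR fold, 3 rose and 1 fell (median 0.13). CD59, the complement inhibitor, rose by 1.997 on the log2 scale, LYPD3 by 3.57 and LY6K by 3.13, and LY6D fell by 2.18.

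Other trypsin-like and HtrA proteases and their Kunitz inhibitors went mostly the other way from PRSS23 in H1944. Of 11 tested, 2 were higher and 9 lower (median log2 fold change -1.49), while 33.9% of all tested genes fell. Several of the 9 falls, with the gene at the median among them, rest on few counts. These passed the filter only through their H1944 WT counts, so the filter favoured a fall. By DESeq2 the gene at the median did not pass (adjusted p 0.0854), nor did a rise (adjusted p 0.0502). SPINT1, which encodes the hepatocyte growth factor activator inhibitor HAI-1, measured 3.69 ± 0.187 CPM in H1944 KO and 45.4 ± 0.428 CPM in H1944 WT (SD, n = 2 each), and SPINT2, its relative, fell by 0.39 on the log2 scale. PRSS22, a tryptase-like protease, had 1 count in H1944 KO, against 96 in H1944 WT, a ratio of WT over KO of 132 with a 95% exact interval of 23.2 to 5280. HTRA1, a secreted protease, rose by 2.90. All 9 tested thrombin and tissue factor genes passed, 6 higher and 3 lower (median 0.46). TFPI2, a Kunitz inhibitor of plasmin and other proteases, measured 579 ± 0.368 CPM in H1944 KO and 92.7 ± 4.77 CPM in H1944 WT (SD, n = 2 each), F3, which encodes tissue factor, rose by 1.61, THBD, which encodes thrombomodulin, rose by 2.24, and F2RL1, a protease-activated receptor, fell by 1.98.

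**Figure D4:**
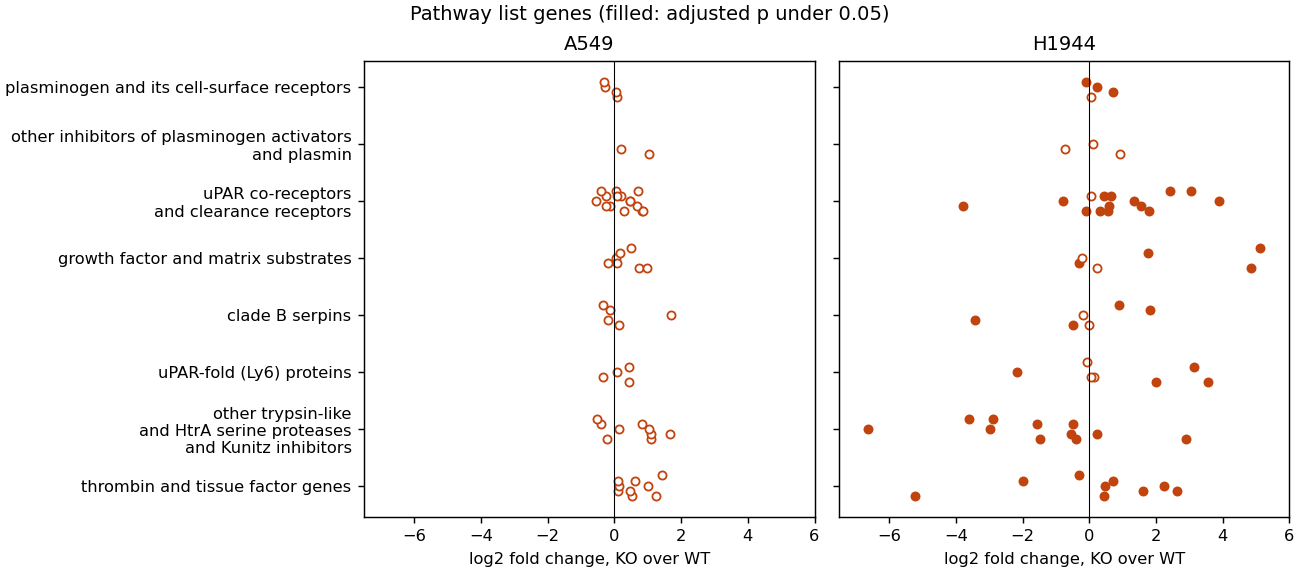
Log2 fold change of KO over WT (horizontal axis) for tested genes of the 8 lists (rows) in A549 (left) and H1944 (right); filled points have an adjusted p under 0.05. None is filled in A549, and in H1944 31 list genes rose and 22 fell. Not shown for H1944 are 3 list genes that had 0 counts in a genotype, and ITGB3, whose log2 fold change of 7.26 lies beyond the axis.

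Changes of neighbouring genes in H1944 were smaller than those of the members beside them, or had the other sign. VCL and CAMK2G, beside PLAU, had log2 fold changes of 0.45 and 0.18, against 2.69 for PLAU, and both passed. AP3M2 and IKBKB, on either side of PLAT, fell by 1.13 and 1.22, opposite to PLAT. MRPL44, beside SERPINE2, had 0.12 and did not pass (edgeR adjusted p 0.0563). CADM4, beside PLAUR, rose by 0.60 and ME3, beside PRSS23, by 0.55. SERPINB10 had 0 counts in each library, as did FAM124B beyond SERPINE2.

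Among 17677 genes, those whose level followed a member most closely over the 10 libraries, and whose mean KO minus WT difference had the same sign in both lines, were named by Pearson correlation of log2(CPM + 1). They were LOXL2 (r = 0.989) and PHLDA1 (0.989) for PRSS23, TGFBI (0.988) and UXS1 (0.972) for SERPINE2, TPRG1L (0.968) and UBE2A (0.961) for PLAU, FHL2 (0.967) and KCTD10 (0.965) for PLAUR, and CYP4F35P (0.977) and IRAK3 (0.962) for PLAT. The 10 libraries share 2 lines and 4 groups, so each r is a description with no p. The A549 differences behind that sign were as small as 0.02 for UBE2A and 0.03 for LOXL2 on the log2 scale. PLAU and SERPINE2 themselves had A549 log2 fold changes of -0.09 and -0.05, the other sign from H1944. Closer followers that broke the sign rule were not named.

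Markers of other cell types were read beside the H1944 changes. The 7 epithelial markers summed to 17164 to 17588 CPM in H1944 KO, against 9686 to 9847 CPM in H1944 WT, nearly all of it the keratins KRT8 and KRT18. The adhesion genes among them went the other way: EPCAM measured 1.11 and 0.756 CPM in H1944 KO, against 70.2 and 67.5 CPM in H1944 WT, and CDH1, which encodes E-cadherin, measured 7.68 and 8.05 CPM in H1944 KO, against 207 and 207 CPM in H1944 WT. CLDN3, CLDN4 and KRT19 were lower in both H1944 KO libraries than in both H1944 WT libraries as well. CLDN3 and KRT19 were scarce, with 7 and 7 counts of CLDN3 and 1 and 3 of KRT19 in H1944 KO. In H1944 WT they had 25 and 26 counts, and 31 and 29. Falls were common in H1944, at 33.9% of tested genes by edgeR. The share with every KO library below every WT library is not given here. The 5 lung lineage markers summed to 0.789 to 1.003 CPM in H1944 KO, against 7.72 to 10.6 CPM in H1944 WT. The 6 fibroblast markers summed to 11.7 to 13.5 CPM in H1944 KO, against 13.5 to 15.2 CPM in H1944 WT, with COL1A2 and PDGFRA at 0 counts in KO. The 4 endothelial markers summed to 1.21 to 1.64 CPM in H1944 KO, against 1.36 to 1.39 CPM in H1944 WT, with KDR at 0 counts in both. The 4 leukocyte markers summed to 51.3 to 53.4 CPM in H1944 KO, against 26.4 to 28.3 CPM in H1944 WT, nearly all of it CD68, with CD3E at 0 in both and PTPRC at 0 in KO. In A549 fibroblast markers summed to 10.7 to 17.2 CPM in KO, against 5.40 to 8.08 CPM in WT, with COL1A2 and DCN at 0 in both. Endothelial markers summed to 0.584 to 2.50 CPM in A549 KO, against 0.0471 to 0.478 CPM in A549 WT, with KDR at 0 in both. The epithelial sums, 9218 to 22400 CPM in A549 KO and 8741 to 23279 CPM in A549 WT, overlapped, as did the lung lineage sums (1.19 to 2.02 and 0.861 to 2.01 CPM) and the leukocyte sums (34.3 to 37.5 and 28.8 to 44.4 CPM). EPCAM measured 73.6, 36.9 and 82.0 CPM in A549 KO 16, 65 and 66, against 14.9, 29.9 and 25.3 CPM in A549 WT 1, 2 and 3. CLDN3 and CLDN4 were also higher in each A549 KO library than in each A549 WT library, the other direction from H1944. In A549 6.11% of tested genes had every KO library above every WT library, so this order alone sets no marker apart. The remaining epithelial markers, CDH1, KRT8, KRT18 and KRT19, overlapped between the A549 genotypes. The part of these markers in the members' changes was not tested.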

How the data were processed

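RNA-seq counts of 10 libraries of 2 cell lines were used, 1 table per line. The deposited values are whole-number counts, 1 row per gene symbol, and were used as raw counts because they are whole and their totals differ between libraries. Per the submitters' processing notes the tools were Trim Galore 0.5.0, HISAT2 2.1.0, featureCounts 1.6.4 and DESeq2, with hg38; annotation, strandedness and multi-mapped reads are not given in the sources used here. Genes were kept by filterByExpr (minimum count 10), scaled by TMM and tested in R 4.3.3 with edgeR 4.0.16 (glmQLFit with robust = TRUE, then glmQLFTest), within each line and, for the difference between lines, over all 10 libraries, with Benjamini-Hochberg adjustment over all tested genes. Where no tool is named, an adjusted p is edgeR's; SE was derived from the fold change and its F statistic. Of the 6 members, 5 passed the filter in both lines, with at least 48 counts in each library, and SERPINB2 passed in neither. The depth per library, 18314224 to 30219850 counts, limits precision for PLAT and SERPINB2; intervals and floors speak for counting error alone, because PCR copies were not marked by molecular identifiers. Exon lengths are unions of GENCODE 29 basic exons, which may differ from the authors' annotation. Alternatives were DESeq2 1.42.0, limma-voom (limma 3.58.1), RLE scaling, no filter, each library left out, the replicate block, library set as a term, the A549 libraries with 0 counts of RNA28SN4 alone, and all 10 libraries in the fit. The fits were tested on simulated data. Members, lists and alternatives were chosen with earlier results of these data known. Named genes are the members, APEX1, up to 4 members per list with the smallest adjusted p in H1944, the nearest annotated genes and, per member, the 2 most alike genes among those with the same sign of change in both lines. C10orf55 and FZD4 overlap members, and PLG and the single cell type markers were named after their values were seen. No per-sample column was left out. 1 gene of the pathway lists is not reported here and was left out of their counts.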

Additional observations from a re-analysis of the deposited data

Results flagged for a closer look

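The KO change differed between lines for 3 of 5 members and 16 of 71 list genes, by edgeR's adjusted p under 0.05 for the A549 change minus the H1944 change, as for 6.95% of all tested genes. The list genes named in the report were picked by their H1944 result, which favours such a difference. Among the members these were PLAU (-2.80), SERPINE2 (-3.73) and PRSS23 (-2.96), each of which rose in H1944 KO and did not pass in A549. Of the receptors and substrates, ITGA3 (-1.83), VTN (-3.46) and BDNF (-4.81) had a lower and SORL1 (4.41) a higher change in A549, and none of these 4 passed in A549 itself. Of the serpin and uPAR families, SERPINB6 (-2.06), CD59 (-1.57), LYPD3 (-3.15) and LY6K (-3.08) differed in the same direction as the members. HTRA1 (-3.32), TFPI2 (-2.21) and F3 (-1.53) did so too. SPINT1 (4.62), PRSS22 (7.67) and F2RL1 (2.59) had the opposite sign. ITGB3 (-7.18) and F2 (6.44), the other list genes that differed, lie outside the naming rule and were chosen with their values in view. ITGB3 had 0 and 1 counts in H1944 WT and F2 had 3 and 4 in H1944 KO, so the sizes of both differences are imprecise. PRSS22 and LYPD3 were too low to be tested in A549 alone, and PRSS22 had 1 count in H1944 KO. Groups held 2 or 3 libraries, so no single library was tested as standing apart within its group.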

How the results depend on the processing

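The 5 H1944 rises kept their direction and passed under each alternative, except PLAT with all 10 libraries in the fit (log2 fold change 1.21, adjusted p 0.17). With the replicate block 5 members were higher and all genes gave 5568 and 5660 calls, against 5522 and 5642 without it. Equally numbered H1944 libraries deviated with a correlation of 0.0128, so no shared deviation was seen. With so few libraries this cannot tell whether they were paired. In A549 a block could not be fitted, since the KO columns carry no labelled replicate number. With all 10 libraries in the H1944 fit, list genes gave 18 higher and 6 lower, and all genes 1177 and 1345. In A549 no member passed under any alternative. With each library left out, log2 fold changes ran from -0.49 to 0.15 for PLAU (positive without WT 3 or KO 66), -0.61 to 0.22 for SERPINE2 (positive without WT 1, KO 16 or KO 66) and -0.019 to 0.96 for PLAT (negative without KO 65). All A549 genes called, 1 higher and 0 lower, became 81 and 44 by DESeq2, 2 higher without the filter, 3 and 1 with library set as a term, 0 in the libraries without RNA28SN4 counts, 10 and 6 with all libraries in the fit, and 0 without each library in turn. For the difference between lines, 725 higher and 503 lower became 1262 and 1056 by DESeq2, with 17 list genes lower against 11, and PLAUR at -0.82. With each library left out, PLAU ran from -3.22 to -2.56, PLAUR from -0.92 to -0.67, list genes from 2 to 9 higher and 6 to 15 lower, and all genes from 249 to 1606 higher and 133 to 1286 lower, the highest without A549 WT 1; members lower ran from 2 to 4. SERPINE2 and PRSS23 passed each time. Leaving out an H1944 library leaves its genotype with 1, which is assumed to vary like the other groups. The causes were not tested. Depth limits SERPINB2, with at most 5 counts per library.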
